A study of Mus musculus with 32 samples.

Results

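The miR-290 cluster of mouse embryonic stem (ES) cells was described through every peak that overlapped chr7:3190000-3230000 (mm9), the 40-kb interval that holds the cluster and the enhancers beside it. The interval was selected on measured values, the mean fold enrichment of the strongest TAF6L-FB region found in both TAF6L-FB lines, so the counts, widths and fold enrichments below are a description and none of them is tested. It held 77 of the 387563 peaks in 26 lists, and 20 of the 26 lists had at least 1 peak there. By genotype, 29 of these peaks came from wild-type, 18 from Taf5l-KO and 24 from Taf6l-KO libraries, and 6 from tagged lines. The lists differed in length between genotypes, so these counts alone do not show a loss at the interval.

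The study profiled chromatin by ChIP-seq in J1 mouse ES cells grown with serum and LIF, the cytokine that holds ES cells undifferentiated. Antibodies to Oct4, Myc, H3K9ac, H3K4me3, RNA polymerase II (RNAP) and its serine 5 and serine 2 phosphorylated forms (RNAP-ser5, RNAP-ser2) were each used in 3 libraries, 1 from wild-type cells, 1 from Taf5l-KO and 1 from Taf6l-KO. Streptavidin pull-down (bioChIP) was used for Flag-Biotin tagged TAF5L (lines A5 and A6), Flag-Biotin tagged TAF6L (lines 15 and 9) and a library labelled BirA, the biotin ligase, which served as control, all labelled wild-type. With 1 library per antibody and genotype, no value between genotypes has a replicate check, and the 7 antibody libraries of a genotype share an input, while each bioChIP library has its own. The labels do not say whether a knockout is 1 clone or several.

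The miR-290 cluster is a run of hairpins transcribed together, and it is among the most abundant sources of microRNA in mouse ES cells. Several of its microRNAs share a seed with some of the miR-302 cluster and are known for repressing inhibitors of the G1 to S transition of the cell cycle. The genes are controlled by a group of enhancers bound by Oct4 and other pluripotency factors, often called a super-enhancer. TAF5L and TAF6L are subunits of SAGA-type coactivators, large complexes that carry a histone acetyltransferase acting on H3K9 and that are recruited to promoters and enhancers by activators such as Myc.

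The mature sequences from RefSeq (GRCm38.p6) show what the locus encodes. All 9 gene symbols sought for the cluster matched the table, which lists Mir292a as Mir292, and 17 mature microRNAs were found for them among 1738 in all. The 3p arms of Mir290a, Mir291a, Mir294 and Mir295 and the 5p arm of Mir292a are shown with the seed, bases 2 to 8, in capitals, beside miR-302b-3p from the miR-302 cluster.
miR-290a-3p: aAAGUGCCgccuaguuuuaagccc
miR-291a-3p: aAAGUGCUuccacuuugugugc
miR-294-3p: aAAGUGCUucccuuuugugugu
miR-295-3p: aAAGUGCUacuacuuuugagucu
miR-292a-5p: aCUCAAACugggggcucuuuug
miR-302b-3p: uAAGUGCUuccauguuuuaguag

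The 3p arms of Mir291a, Mir294 and Mir295 had the same seed, AAGUGCU. It was shared with miR-302b-3p and miR-302d-3p and with no other mature sequence in the table. The 3p seed of Mir290a, AAGUGCC, was the seed of no other mature sequence in the table. The table held no mature 3p arm for Mir292a or Mir302a, so neither was compared. The letters AAGUGCC are also present in the Mir292a hairpin, past its 5p arm. The 3p arms of Mir291b and Mir293, further hairpins of the cluster, had seeds of their own, and that of Mir291b was also found in miR-350-5p.
miR-291b-3p: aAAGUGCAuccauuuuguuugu
miR-293-3p: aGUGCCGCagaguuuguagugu
Of the 6 plus-strand 3p arms in the table, 5 held AAGUGC at the start of the seed, and miR-293-3p was the exception. Across all 1738 mature sequences, 8 had a seed that started with AAGUGC, which is 0.46%. The 5p arms of Mir290a, Mir292a and Mir293 shared a second seed, CUCAAAC, that no microRNA outside the cluster had.

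The lncRNA gene D7Ertd143e stands between Mir290a and Mir291a in the RefSeq gene order. Its promoter window, from 250 bases before to 50 after the annotated start (GRCm38.p6, plus strand), is shown because it contains the entire 83-base hairpin of Mir290a. The first run of capitals is that hairpin (bases 93 to 175 of the window) and the second is the E-box CACGTG, the letters bound by Myc.
D7Ertd143e promoter: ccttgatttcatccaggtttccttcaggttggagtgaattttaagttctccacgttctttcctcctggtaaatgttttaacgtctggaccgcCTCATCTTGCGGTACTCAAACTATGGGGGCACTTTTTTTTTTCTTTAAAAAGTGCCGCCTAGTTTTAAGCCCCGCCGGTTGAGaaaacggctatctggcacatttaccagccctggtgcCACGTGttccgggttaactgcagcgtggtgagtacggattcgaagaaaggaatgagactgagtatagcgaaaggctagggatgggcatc
CACGTG, which reads the same on both strands, starts at base 212 and was present in 7.15% of 32851 RefSeq promoters of this length. Neither ATGCAAAT, the octamer bound by Oct4, nor TATAAA was in the window on either strand. They were present in 1.74% and 13.6% of promoters. The peaks below are on mm9, a different build, so the window was not placed under any of them.

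Whole-library properties differed between lists. After duplicate removal, libraries held 1702363 to 27775010 unique tags, and the lowest value was RNAP-ser5 in Taf6l-KO, with 92.6% duplicates. The lists of Myc held 538 wild-type peaks and only 34 in Taf5l-KO and 23 in Taf6l-KO, and those of H3K9ac 4131, 110 and 898. The Oct4 lists held 2564, 3034 and 2049 peaks. A lost Myc or H3K9ac peak therefore has to be read against lists that lost most of their peaks, and a lost Oct4 peak against lists of similar length.

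Peaks of the 4 sequence-specific or tagged factors fell into 7 short elements, numbered along the chromosome. Element 1 was chr7:3193256-3193374, element 2 chr7:3201083-3201777 and element 3 chr7:3206433-3206912. Element 4 was chr7:3211731-3211857, element 5 chr7:3213650-3213844, element 6 chr7:3217559-3217964 and element 7 chr7:3221238-3221618. Elements 1 to 5 lay 23707, 15880, 10530, 5232 and 3313 bp before the start of the widest wild-type H3K4me3 peak, chr7:3216963-3220906, called the H3K4me3 block here. Element 6 lay inside that block and element 7 past its end. H3K4me3 is the mark of active promoters, so elements 1 to 5 were distal to the marked region and element 6 was within it.

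**Figure D1:**
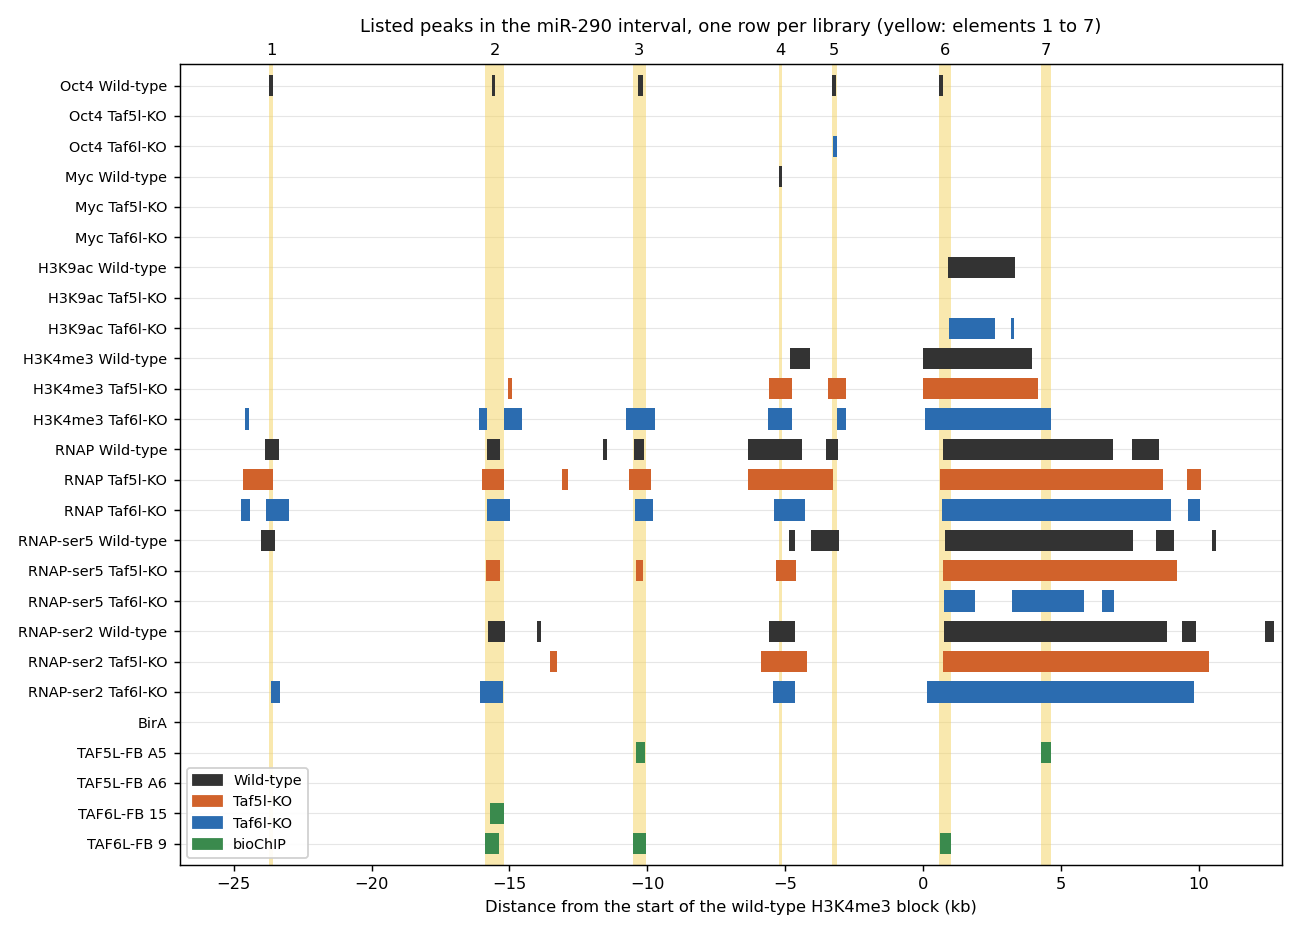
Peaks of the miR-290 interval in each of the 26 libraries (rows), drawn to scale along the distance in kb from the start of the wild-type H3K4me3 block (horizontal axis), with the 7 elements as numbered yellow bands. Oct4 peaks fill 5 bands in wild-type cells and 1 in the knockouts, while the H3K4me3 block and the polymerase block on the right are drawn in all 3 genotypes.

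Oct4, the POU-domain factor that sustains pluripotency, had 5 wild-type peaks in the interval, at elements 1, 2, 3, 5 and 6. Their fold enrichments, which here and below are the authors' ratio of pileup to local background for each peak, were 6.43, 7.46, 5.32, 13.2 and 5.11 in that order. These values ranked 1846, 1429, 2341, 291 and 2362 in the list of 2564, so only the element 5 peak was strong within its list. The peaks were 119 to 176 bp wide.

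The number of Oct4 peaks set the interval apart more than their strength did, when windows were laid from its own start. Of 2332 windows of 40 kb with a wild-type Oct4 peak, 2 others had 5 or more. The count of 5 includes weak calls, and at a −log10 q of at least 5 the interval had 2 wild-type Oct4 peaks. With the window grid shifted by 20000 bp, a window edge fell between elements 3 and 4 and split the interval's 5 peaks. The interval then no longer counted, and the 1 window with 5 or more was elsewhere. No Oct4 peak of any genotype lay within 40 kb on either side of the interval.

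In Taf5l-KO cells 0 of these 5 Oct4 peaks were overlapped by an Oct4 peak, against 59.1% of all wild-type Oct4 peaks. In Taf6l-KO cells 1 of 5 was, against 46.5%. The peak still listed in Taf6l-KO was the strongest one, at element 5, with a fold enrichment of 9.13 and rank 744 of 2049. Its summit lay 21 bp from the wild-type summit.

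The weaker Oct4 peaks were of a kind often missing from the knockout lists. With wild-type Oct4 peaks divided into 10 strata of fold enrichment, the strata of the peaks at elements 1, 2, 3 and 6 kept 39.2%, 48.8%, 46.5% and 46.5% in Taf5l-KO. The same strata kept 30.2%, 36.1%, 34.3% and 34.3% in Taf6l-KO. The stratum of element 5 kept 86.0% in Taf5l-KO, where the element 5 peak was absent, and 78.7% in Taf6l-KO, where it was present.

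The next Oct4 peak on the chromosome, chosen as a comparison after its values were seen, was listed in all 3 genotypes. It was chr7:3348198-3348367 in wild-type cells, 118 kb past the interval, with a fold enrichment of 8.32 and rank 1046 of 2564. In Taf5l-KO the peak there had a fold enrichment of 12.7 and rank 429 of 3034, and in Taf6l-KO 10.4 and rank 485 of 2049. Over the whole list, 59.1% of wild-type Oct4 peaks were overlapped in Taf5l-KO and 46.5% in Taf6l-KO. The presence of this 1 peak in both knockouts therefore says nothing particular about the miR-290 interval.

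Myc, the growth-promoting bHLH factor that binds E-boxes, had 1 wild-type peak in the interval, element 4. It was 127 bp wide with a fold enrichment of 9.31, rank 192 of 538. Neither knockout listed it, and over the entire list 3.90% of wild-type Myc peaks were overlapped in Taf5l-KO and 1.67% in Taf6l-KO. The absence at the interval is the same as at nearly all other Myc peaks and says nothing particular about this locus. No Oct4 or TAF peak overlapped element 4.

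**Figure D2:**
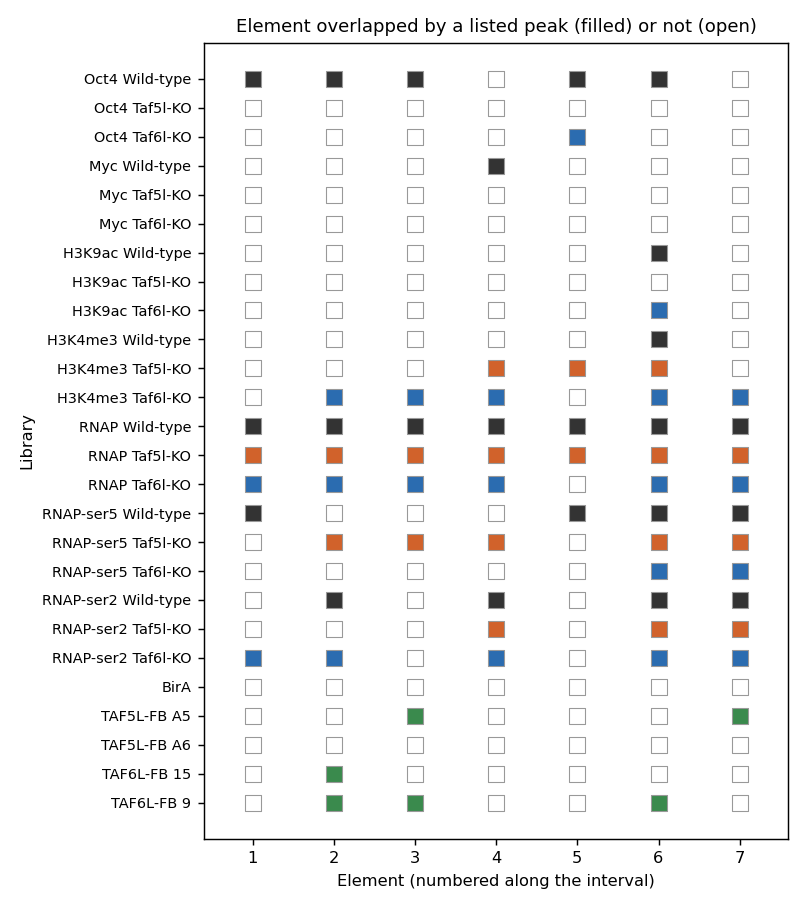
Each of the 7 elements (horizontal axis) in each of the 26 libraries (vertical axis), filled where at least 1 listed peak overlaps it and open where none does. The RNAP rows are filled at 7 (wild-type), 7 (Taf5l-KO) and 6 (Taf6l-KO) elements, whereas the Oct4 rows are filled at 5, 0 and 1.

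TAF6L-FB was listed at 3 of the 7 elements, and each of these 3 also had a wild-type Oct4 peak. Element 2 had a peak in both lines. In line 15 it was chr7:3201257-3201777, with a fold enrichment of 8.16 and rank 2 of 1140. In line 9 it was chr7:3201083-3201577, with 6.57 and rank 22 of 628. Their mean of 7.37 was the highest of the 127 TAF6L-FB regions found in both lines, which is the value that chose the interval.

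Line 9 alone had 2 further peaks. The peak at element 3 had a fold enrichment of 7.12 and rank 6, above that of element 2 in the same line. The peak at element 6, at the left end of the H3K4me3 block, had 5.34 and rank 87. Line 15 listed neither, although its list is the longer one. Across the lists, 11.7% of line 15 peaks were overlapped in line 9 and 21.2% of line 9 peaks in line 15, beside 1 of 1 and 1 of 3 here.

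TAF5L-FB was listed at elements 3 and 7 in line A5 and nowhere in the interval in line A6, whose list held 7 peaks. At element 3 the fold enrichment was 4.78, rank 16 of 136, and at element 7 it was 3.79, rank 87. Element 3 was therefore the only element of the 7 with peaks of TAF5L-FB, TAF6L-FB and Oct4. The BirA control, with 24 peaks in all, had none in the interval.

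Distances between summits of the tagged proteins and of Oct4 were taken only inside elements, where their peaks already overlapped. These elements were 695, 480 and 406 bp wide (2, 3 and 6). Short distances were therefore largely set by the joining rule, and they only describe the elements. At element 2 the TAF6L-FB summits were 108 bp (line 15) and 61 bp (line 9) from the wild-type Oct4 summit. At element 3 the TAF5L-FB summit was 10 bp and the TAF6L-FB summit 161 bp away. At element 6 the TAF6L-FB summit was 162 bp away. Each of these distances is shorter than the 300-bp fragment length set for the tagged libraries, per the file headers.

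Of the 5 wild-type Oct4 peaks, 3 were overlapped by a TAF6L-FB peak of either line, where 10.0% of all wild-type Oct4 peaks were. For TAF5L-FB 1 of 5 was, where 1.99% of all were. Read from the tagged lists, the line 15 peak and all 3 line 9 peaks met a wild-type Oct4 peak, and 14.3% and 22.0% of all peaks in those lists did. The interval was picked for a TAF6L-FB region, so an excess of TAF6L-FB over the list is fixed by that choice. Neither knockout listed Oct4 at the 3 elements with TAF6L-FB, nor at element 1, which had no tagged protein, and the 1 Oct4 peak still listed in Taf6l-KO was at element 5, which had none either.

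**Figure D3:**
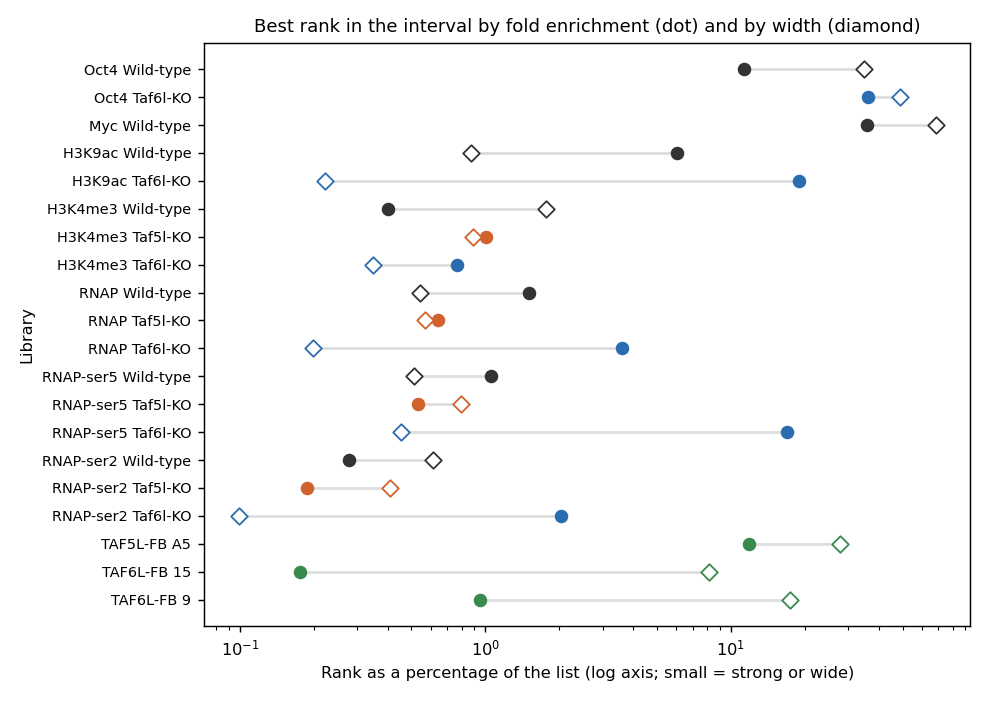
Rank of the strongest peak (dot, by fold enrichment) and of the widest peak (diamond) of the interval, as a percentage of each list (horizontal log axis, small is strong or wide), in the 20 libraries with a peak there (vertical axis). The TAF6L-FB dots sit at 0.175% and 0.955% of their lists, and the Taf6l-KO diamonds of H3K9ac, H3K4me3 and the polymerase forms all sit below 0.5%.

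H3K4me3, the promoter mark, formed a block that was strong and wide in every genotype. The wild-type block peak was 3944 bp wide. That of Taf5l-KO, chr7:3216954-3221115, was 4162 bp wide, and that of Taf6l-KO, chr7:3217046-3221600, was 4555 bp wide. Its fold enrichments were 14.9, 15.8 and 17.6 in that order. They ranked 130 of 32370, 323 of 32098 and 225 of 29463. By width the block ranked 572, 286 and 103 in the same lists, which differ in length, and by −log10 q it ranked 86, 210 and 51.

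Both wild-type H3K4me3 peaks of the interval were overlapped in each knockout, where 84.6% of all wild-type peaks were in Taf5l-KO and 80.8% in Taf6l-KO. The weaker one, chr7:3212132-3212861, was met only at its left end, by knockout peaks that ended at 3212205 and 3212200. Its stratum of fold enrichment kept 40.5% in Taf5l-KO and 31.0% in Taf6l-KO, and the stratum of the block kept 100% in both. The knockout lists also had weak H3K4me3 peaks between the elements and over them that no wild-type peak overlapped. There were 2 such peaks among 4 in Taf5l-KO, against 14.2% of that list, and 5 among 7 in Taf6l-KO, against 10.5%. At a −log10 q of at least 5, only the block peak remained in each list, so all of these further peaks were gone. All peaks outside the block were weak in their lists, with fold enrichments from 3.23 to 4.52, beside 3.32 for the 1 wild-type peak outside the block. In the Taf6l-KO list, 20 other windows of 40 kb, of 21254 with a peak, had 7 or more peaks.

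Of these 7 knockout peaks, 4 overlapped a distal element (2, 3 or 5) and 3 overlapped none. Counting all its peaks, H3K4me3 overlapped element 6 and no other element in wild-type cells. It overlapped elements 4, 5 and 6 in Taf5l-KO, and elements 2, 3, 4, 6 and 7 in Taf6l-KO. At element 2 the Taf6l-KO peaks, chr7:3200851-3201161 and chr7:3201749-3202398, overlapped only its ends. Neither reached the wild-type Oct4 peak there, chr7:3201315-3201445. Seen from the 5 wild-type Oct4 peaks, 1 was overlapped by H3K4me3 in wild-type cells and 2 in each knockout. The shares over all wild-type Oct4 peaks were 13.2%, 10.5% and 11.0%. The wild-type library held 15136528 unique tags and the knockout libraries 8886529 and 13041135, so the knockout lists held more of these peaks at lower depth. The wild-type input was the deepest of the 3 inputs, with 7771755 unique tags against 6245652 and 5923469. The part of library or input depth in the extra peaks was not tested.

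H3K9ac, the acetylation laid down by SAGA-type acetyltransferases, had 1 wild-type peak in the interval, chr7:3217868-3220313. It was 2446 bp wide and lay wholly inside the H3K4me3 block. Its fold enrichment of 7.04 ranked 249 of 4131 and its width ranked 36. Taf6l-KO had it in 2 pieces, of 1699 bp and 132 bp, and the first had a fold enrichment of 7.14, rank 171 of 898, and ranked 2 in that list by width. Taf5l-KO listed no H3K9ac peak there.

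The wild-type H3K9ac peak was thus kept in Taf6l-KO, where 19.2% of all wild-type H3K9ac peaks were, and not in Taf5l-KO, where 2.54% were. In its own stratum of fold enrichment, the strongest of 10, 62.5% were kept in Taf6l-KO and 13.6% in Taf5l-KO. For both knockouts the outcome at the interval was the more common one for a peak of that strength. No H3K9ac peak of any genotype overlapped elements 1 to 5. The next H3K9ac peak on the chromosome, 367 kb past the interval, was listed in all 3 genotypes, with ranks 170 of 4131, 83 of 110 and 273 of 898.

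**Figure D4:**
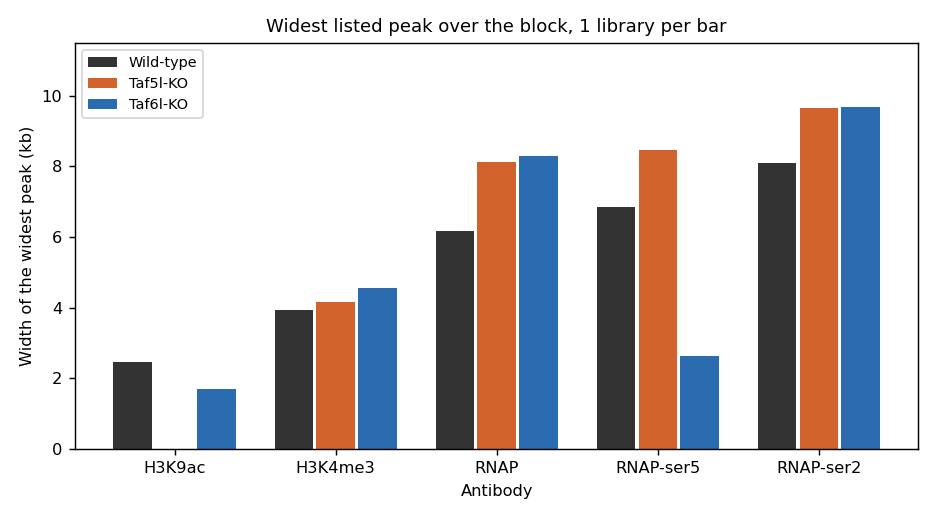
Width in kb (vertical axis, from 0) of the widest peak over the block for 5 antibodies (horizontal axis) in the 3 genotypes, 1 library per bar and so without error bars. The H3K4me3, RNAP and RNAP-ser2 bars are higher in both knockouts than in wild-type cells, the RNAP-ser5 bar of Taf6l-KO drops to 2625 bp, and H3K9ac has no Taf5l-KO bar.

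RNA polymerase II covered more of the interval than any other target. Its wild-type list had 8 peaks there, covering 27.6% of the interval, and the knockout lists had 7 each, covering 36.8% (Taf5l-KO) and 31.3% (Taf6l-KO). Polymerase was listed at all 7 elements in wild-type and Taf5l-KO cells and at 6 in Taf6l-KO cells, where element 5 was without a peak. In Taf5l-KO element 5 had no peak of its own, and the end of the peak over element 4 overlapped it. The strongest wild-type peak was chr7:3210611-3212574, which covers the Myc peak of element 4. It had a fold enrichment of 11.1, rank 444 of 29370, above the 9.45 and rank 910 of the peak that starts in the H3K4me3 block.

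In the knockouts the order of those peaks was the opposite. The block peak had a fold enrichment of 13.3 and rank 132 of 20583 in Taf5l-KO and 11.2 and rank 960 of 26734 in Taf6l-KO. The peak over element 4 had 7.70 and rank 2579 in Taf5l-KO, and 6.92 and rank 6468 in Taf6l-KO. By pileup height, which is not relative to the background, the wild-type block peak (15.9) stood slightly above the element 4 peak (15.3), so the wild-type order depends on the measure.

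Of the 8 wild-type RNAP peaks, 7 were overlapped in Taf5l-KO, against 52.5% of the list, and 6 in Taf6l-KO, against 60.4%. The peak missing from both, chr7:3205348-3205487, was 140 bp wide and overlapped no element. In each knockout, 2 peaks met no wild-type peak, against 27.3% of the Taf5l-KO list and 33.2% of the Taf6l-KO list. All elements that lost Oct4 in Taf5l-KO were still overlapped by a polymerase peak there. At element 5 this was only an edge contact. The Taf5l-KO peak, chr7:3210621-3213706, also covered element 4 and ended before the wild-type Oct4 summit of element 5 at 3213740.

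At the positions of the wild-type Oct4 peaks, total RNAP was listed more often than its phosphorylated forms. RNAP overlapped 4 of the 5 wild-type Oct4 peaks in wild-type cells, all 5 in Taf5l-KO and 4 in Taf6l-KO. The overlap at element 5 in Taf5l-KO was at the edge only and did not reach the Oct4 summit. Over all wild-type Oct4 peaks the shares were 24.1%, 28.6% and 26.1%. The wild-type Oct4 peak not overlapped was at element 6, where it ended at 3217679 and the wild-type RNAP block began at 3217687. RNAP-ser5 overlapped 2, 2 and 0 of the 5 in the same order of libraries, where 11.6%, 12.5% and 5.07% of all wild-type Oct4 peaks were overlapped. For RNAP-ser2 the counts were 1, 0 and 3 of 5, and the shares were 15.3%, 14.0% and 13.0%. These are polymerase peaks at wild-type Oct4 positions, since Taf5l-KO had no Oct4 peak in the interval and the 1 Oct4 peak of Taf6l-KO, at element 5, had no RNAP peak in that genotype.

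**Figure D5:**
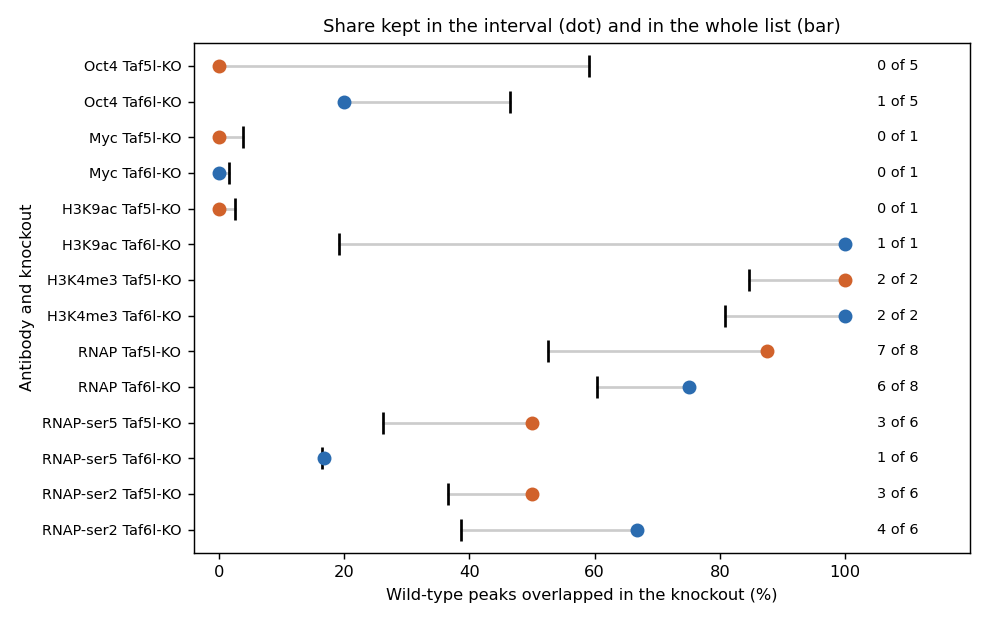
Share of wild-type peaks overlapped by a peak of the same antibody in the knockout (horizontal axis, percent), in the interval (dot, with its count at the right) and over the whole list (vertical bar), for 7 antibodies in 2 knockouts (vertical axis). The dots of Oct4 lie left of their bars and those of H3K4me3 and RNAP right of them, each from 1 library and at most 8 peaks.

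RNAP-ser5, the form at the start of transcription, and RNAP-ser2, the form in elongation, were concentrated in the block. In wild-type cells the RNAP-ser5 block was 6848 bp wide with a fold enrichment of 6.12, rank 478 of 45366. The RNAP-ser2 block was 8083 bp wide with 11.0, rank 120 of 43039. They started at 3217743 and 3217728 and ended at 3224590 and 3225810. The RNAP block was 6162 bp wide, from 3217687 to 3223848, so both phosphorylated forms ended further right.

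Of 6 wild-type RNAP-ser5 peaks, 3 were overlapped in Taf5l-KO, against 26.2% of the list, and 1 in Taf6l-KO, against 16.5%. Taf5l-KO had 4 RNAP-ser5 peaks, 2 of them outside wild-type peaks, against 48.3% of its list, and these 2 lay at elements 2 and 3. Its block was 8458 bp wide with a fold enrichment of 9.49, rank 118 of 22190. Taf6l-KO had 3 peaks, of 1135, 2625 and 450 bp, and 0 of the 3 lay outside the wild-type block, against 52.6% of its list outside wild-type peaks. That library is the one with 1702363 unique tags, and the widths followed the depth, with 3871824 unique tags in wild-type cells and 8807133 in Taf5l-KO. The part of depth in the shorter Taf6l-KO block was not tested.

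Of 6 wild-type RNAP-ser2 peaks, 3 were overlapped in Taf5l-KO, against 36.6% of the list, and 4 in Taf6l-KO, against 38.7%. In each knockout 1 RNAP-ser2 peak met no wild-type peak, against 49.8% and 56.7% of the lists. The block was 9646 bp wide in Taf5l-KO, rank 59 of 31583 by fold enrichment, and 9672 bp in Taf6l-KO, rank 861 of 42451. By width it ranked 264 in the wild-type list, 129 in that of Taf5l-KO and 42 in that of Taf6l-KO. The knockout libraries had 5390622 and 3842867 unique tags and the wild-type library 6295522. The part of depth in these block widths was not tested.

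The polymerase block reached past the H3K4me3 block in every list. Together with the smaller peaks to its right, polymerase signal ran 4600 to 8789 bp beyond the end of the wild-type H3K4me3 block in 8 of the 9 polymerase lists, and 2999 bp in RNAP-ser5 of Taf6l-KO. For RNAP the block was wider in both knockouts, 8118 and 8301 bp, and the Taf5l-KO library, with 15865460 unique tags, was deeper than the wild-type one with 5174150. The Taf6l-KO library held 7236644. The part of depth in the wider RNAP blocks was not tested.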

How the data were processed

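ChIP-seq peak lists of 26 libraries were used, 1 per immunoprecipitation. Reads were aligned to mm9 with Bowtie2 2.3.2 and processed with deepTools 2.5.3, per the submitters' processing notes. Each library was run through MACS2 2.1.1.20160309 for peaks against an input at a q-value cutoff of 0.05, keeping 1 tag per position, per the file headers. Histone mark and polymerase lists used broad linking (cutoff 0.1), per the file headers. The deposited lists give each peak's pileup, a signal that depends on depth, its fold enrichment, a ratio to local background, and its −log10 p and q, all computed by the authors' peak caller.

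Groups came from the sample labels. Nothing was pooled. Peaks on placed chromosomes were kept, and peaks overlapping the interval by at least 1 bp were members. Values were ranked within a list only. Oct4, Myc and TAF peaks that overlapped by 1 bp were joined into elements, and every element is named. A wild-type peak counted as kept when a knockout peak of the same antibody overlapped it. Counts of overlapped peaks at the main settings stand beside the same share over the whole list. With 1 library per group no test was made. The members and lists were chosen with earlier results of these data known. Overlap and joining code, in Python 3.11.15 with pandas 2.3.3, was tested on simulated lists, and ranking code was not. Sequences came from RefSeq tables, and no mm9 genome or gene annotation was used here. Alternatives were a −log10 q minimum, coverage, distance, joining, window grid, interval edges and each tagged line left out.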

Additional observations from a re-analysis of the deposited data

How the results depend on the processing

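Peaks were counted again under stricter or looser rules. At a −log10 q of at least 5, wild-type peaks kept in Taf5l-KO were 1 of 1 for H3K4me3, 3 of 4 for RNAP, 1 of 1 for RNAP-ser5 and 1 of 1 for RNAP-ser2, and in Taf6l-KO 1 of 1, 2 of 4, 0 of 1 and 1 of 1. Fewer peaks enter those counts by construction. Oct4 stayed at 0 of 2 and 1 of 2. No share over the whole list is given for counts under these other rules, so they only describe the interval. When 50% of the wild-type peak had to be covered, H3K4me3 fell to 1 of 2 in each knockout, and within 1000 bp no count of kept peaks moved by over 1.5 times. The 3 TAF6L-FB regions were 1 to 3 with 1 line left out, 1 without line 9, and the 2 TAF5L-FB regions 0 to 2, 0 without line A5. Lists with a peak were 19 or 20 under all alternatives. Ranked by pileup, the strongest peak moved by over 1.5 times in rank in 14 of 20 lists, for example from 2 to 50 in TAF6L-FB line 15. No paired analysis was possible because replicate numbers only name tagged lines and no result comes from a test.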

Other observations

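The surroundings of the interval were sparse. In the 40 kb on either side, Oct4, Myc, H3K9ac, BirA and the tagged proteins had no peak in any list. H3K4me3 had 5 peaks to the left in the wild-type list, 3 in that of Taf5l-KO and 4 in that of Taf6l-KO, and 1 to the right in each. The nearest to the right, at 34.7 kb, had fold enrichments of 4.81, 4.44 and 4.75, which ranked 19455 of 32370, 24892 of 32098 and 20434 of 29463. The 3 polymerase antibodies had 0 to 3 peaks to the left and 0 to the right. The TAF6L-FB line 15 list had its next peak 118 kb to the right, chr7:3348219-3348536, over the next Oct4 peak, with a fold enrichment of 3.84 and rank 807 of 1140. The line 9 list had no peak there.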
